A study of Ovis aries with 14 samples.

Results

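The data describe 5 immune cell genes in the hypothalamus of fetal sheep exposed late in gestation to triclosan, an antibacterial additive of soaps and other personal care products. The genes are ITGAM, FCER1G, FCGR1A and ADORA3, which are used as markers of microglia and other myeloid cells, and LCK, a marker of T lymphocytes. They were taken as every probe whose gene name, or the symbol matched to it, was one of these 5, which gave 7 probes of 15008 and 5 of 964 named genes. Fetal triclosan means that the catheterized fetus itself received 250 µg of triclosan per day into a vein (n = 4 arrays), and fetal vehicle is its vehicle group (n = 4). Maternal triclosan means that the ewe received 100 µg per kg per day into the circulation (n = 3), and maternal vehicle is its vehicle group (n = 2 independent arrays of 3 deposited). All infusions lasted 2 days, all RNA came from whole hypothalamus at about 130 days of fetal age, and no strain or sex is given in the sources used here. It is not stated either whether each array of a group stands for its own pregnancy, so the p-values measure only the spread between these samples. The triclosan dose was given in different units in the fetal and maternal infusions. The triclosan groups are therefore tested only against their own vehicle and through the difference between those contrasts. The vehicle groups were also tested against each other, and the levels of all 4 groups are described side by side.

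Microglia are the resident macrophages of the brain and derive from early embryonic precursors, while T lymphocytes enter brain tissue in small numbers from the blood. ITGAM (integrin alpha M, CD11b) pairs with ITGB2 to form the complement receptor with which phagocytes adhere and take up opsonized particles. FCGR1A is the high-affinity receptor for immunoglobulin G, and FCER1G is the signalling chain that carries its activating motif and that of the immunoglobulin E receptor. ADORA3 is a G protein-coupled adenosine receptor which in human and mouse brain is found mainly in microglia. LCK is the Src family kinase that phosphorylates the T cell receptor complex when antigen is bound. The tissue was not sorted, and fewer cells of a type and less RNA per cell cannot be told apart in such bulk RNA.

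Each probe is a single 60-base oligonucleotide, and the sequences are shown because a gene's value is the brightness of such a stretch alone. FCGR1A, ADORA3 and LCK have 1 probe each, with ADORA3 printed in 5 spots on every array. ITGAM has 2 probes that overlap by 40 bases, shown in capitals, so that they share most of their sequence and are not independent. FCER1G also has 2 probes, which start 1 base apart and share 59 bases. Bases in lower case in the ITGAM probes are those that the other probe lacks, and the remaining sequences are given in lower case throughout.
ITGAM brighter probe (A_70_P050946): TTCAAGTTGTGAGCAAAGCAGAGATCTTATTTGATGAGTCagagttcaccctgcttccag
ITGAM dimmer probe (A_70_P050947): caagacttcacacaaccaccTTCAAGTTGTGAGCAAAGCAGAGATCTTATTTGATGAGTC
FCGR1A (A_70_P013681): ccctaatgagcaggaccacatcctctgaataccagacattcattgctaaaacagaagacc
ADORA3 (A_70_P051241): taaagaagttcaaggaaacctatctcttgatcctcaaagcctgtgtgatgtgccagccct
LCK (A_70_P054986): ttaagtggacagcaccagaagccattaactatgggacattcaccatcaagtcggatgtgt
No probe of another gene on the array shared 20 consecutive bases with any of them.

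All 7 probes were well above background on all 13 arrays analysed, and 0 spots on these arrays were saturated. Levels are given as the percent of an array's 75th-percentile processed signal, and differences as log2 of triclosan over vehicle from a limma fit across 13738 probes, with its standard error (SE). A difference is called where the Benjamini-Hochberg adjusted p over all 13738 probes was under 0.05. Levels of different probes are not read as relative amounts of RNA. The summed levels of gene lists given below add signals of different probes. The brightest probes weigh most in them, and a sum does not measure the amount of a cell type. Maternal vehicle replicate 3 was left out because at 15744 spots it was a weighted mean of replicate 1 (weight 0.6) and replicate 2 (weight 0.4), within a relative difference of 8.1e-11. Median processed signals ranged over 236.1 to 307.4 for fetal triclosan, 315.4 to 380 for fetal vehicle, 284.3 to 375.8 for maternal triclosan and 350.9 to 353.9 for maternal vehicle. The median log2 difference of all probes was −0.09 in the fetal infusion and 0.01 in the maternal infusion, and scaling each array by its median moved the fetal value by 0.22 to 0.13. Replicates 1 of the 4 groups lay on slide 1, replicates 2 on slide 2, and replicates 3 of all but maternal vehicle on slide 3 together with fetal vehicle replicate 4. Fetal triclosan replicate 4 lay alone on slide 5 and has no partner when the slide is a block.

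**Figure D1:**
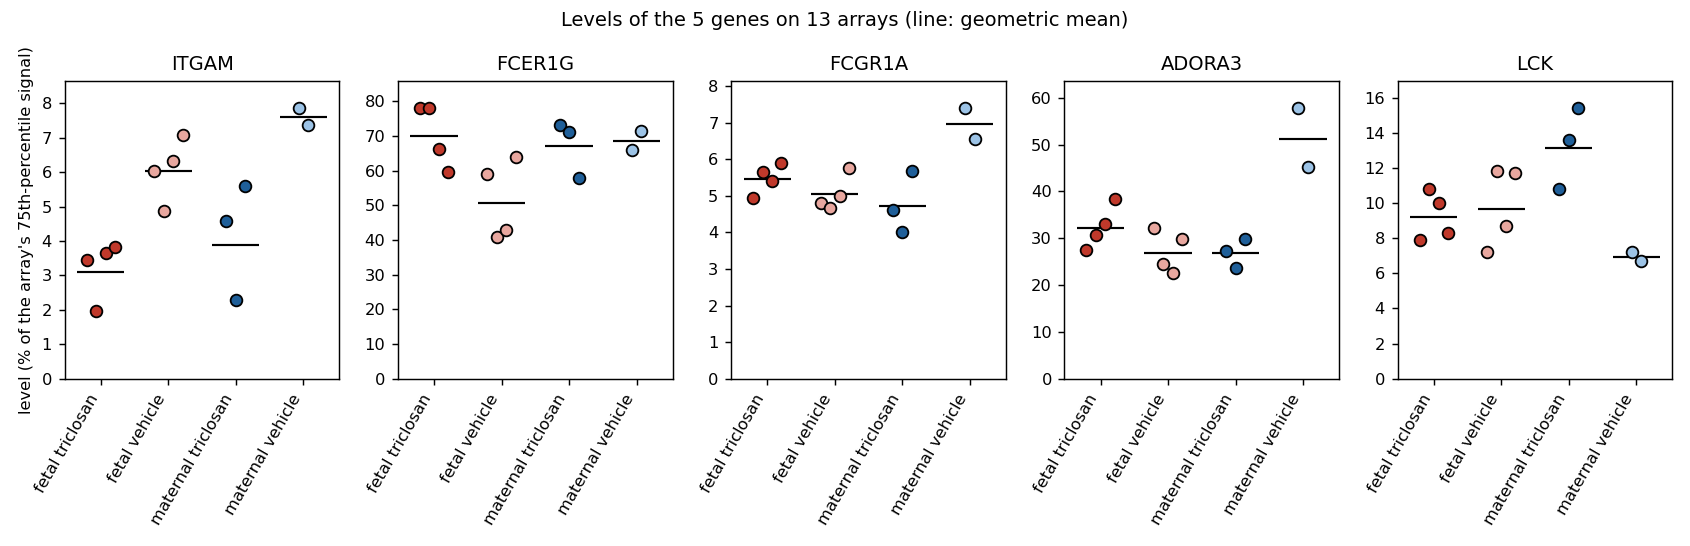
Level of each gene on every array, as percent of that array's 75th-percentile signal, in the fetal triclosan, fetal vehicle, maternal triclosan and maternal vehicle groups. Each point is 1 array and each line the geometric mean of a group, at 3.11, 6.02, 3.89 and 7.6% for ITGAM. The maternal vehicle arrays are the highest for ITGAM, FCGR1A and ADORA3 and the lowest for LCK.

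ITGAM fell in the fetal infusion, where it was the 1 member of 5 called, and it had a negative value in the maternal infusion that was not called. Its brighter probe had 3.44, 1.96, 3.64 and 3.82% on the 4 fetal triclosan arrays, against 6.04, 4.86, 6.31 and 7.09% on the 4 fetal vehicle arrays. All 4 fetal triclosan arrays lay below all 4 fetal vehicle arrays, and replicate 2 was the lowest within each group. The log2 difference was −0.95 (SE 0.28, 95% confidence interval −1.57 to −0.33), which limma gave an adjusted p of 0.0377. In the same contrast 18.3% of all probes were called, 11.6% lower and 6.7% higher. The arrays of the groups did not overlap for 21.6% of all probes, with fetal triclosan lower for 12.7% and higher for 8.83%. An exact permutation test of this gene alone gave a two-sided p of 0.0286, the smallest that 4 against 4 arrays allow. Any probe whose groups do not overlap gets this p, so it adds nothing to the lack of overlap. ITGAM is in the third of 10 classes of mean signal, counted from the dimmest, where the median probe had −0.25 in this contrast.

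With infusion into the ewe, ITGAM had 4.59, 2.29 and 5.61% on the 3 maternal triclosan arrays, against 7.86 and 7.36% on the 2 maternal vehicle arrays. The arrays of the groups did not overlap here either, as was the case in the lower direction for 19.2% of all probes. The log2 difference was −0.97 (SE 0.37, 95% confidence interval −1.77 to −0.16), with an unadjusted p of 0.0223 and an adjusted p of 0.467 in limma. Without maternal triclosan replicate 2, the lowest of its group, it was −0.58. The difference between the maternal and the fetal contrast was −0.01 (SE 0.46, 95% confidence interval −1.03 to 1.00, adjusted p of 0.991 in limma). It was −0.45 with normexp background correction, where the maternal contrast was −0.83, and −0.34 with the dimmer probe.

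The dimmer ITGAM probe had 2.26, 1.77, 4.29 and 4.06% on fetal triclosan arrays, against 5.43, 4.25, 4.75 and 5.60% on fetal vehicle arrays. Here fetal triclosan replicate 3 just exceeded fetal vehicle replicate 2, and the difference of −0.78 (SE 0.37) had an adjusted p of 0.167 in limma. On maternal arrays the dimmer probe had 7.59, 2.11 and 3.91% with triclosan, against 8.85 and 8.47% with vehicle, a difference of −1.13 (SE 0.48, adjusted p of 0.503 in limma). The log2 levels of the probes had a Pearson correlation of 0.87 over 13 arrays, and the log2 difference between them had an SD of 0.36. They stood furthest apart on maternal triclosan replicate 1.

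The call of ITGAM in the fetal infusion depended on the processing and on single arrays, whereas its sign did not change. With the slide as a block the difference was −0.97 (adjusted p of 0.0105 in limma), and within slides 1, 2 and 3 it was −0.81, −1.31 and −0.88. The call was lost with the authors' values, with median scaling, with quantile normalization and with normexp background correction, where the difference was −0.38. Relative to the median of all probes the difference was −0.86 with 75th-percentile or median scaling, −0.72 with quantile normalization, −0.57 in the authors' values and −0.42 with normexp. Of 13 fits without 1 array, 8 lost the call, namely those without fetal triclosan replicate 1 or 2, without fetal vehicle replicate 1, 3 or 4, without maternal triclosan replicate 1 and without maternal vehicle replicate 1 or 2. Their adjusted p in limma was 0.0502 to 0.0925, and the difference over the 13 fits was −1.06 to −0.73. Removing maternal arrays leaves the fetal difference at −0.95 and changes only the estimate of the spread.

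**Figure D2:**
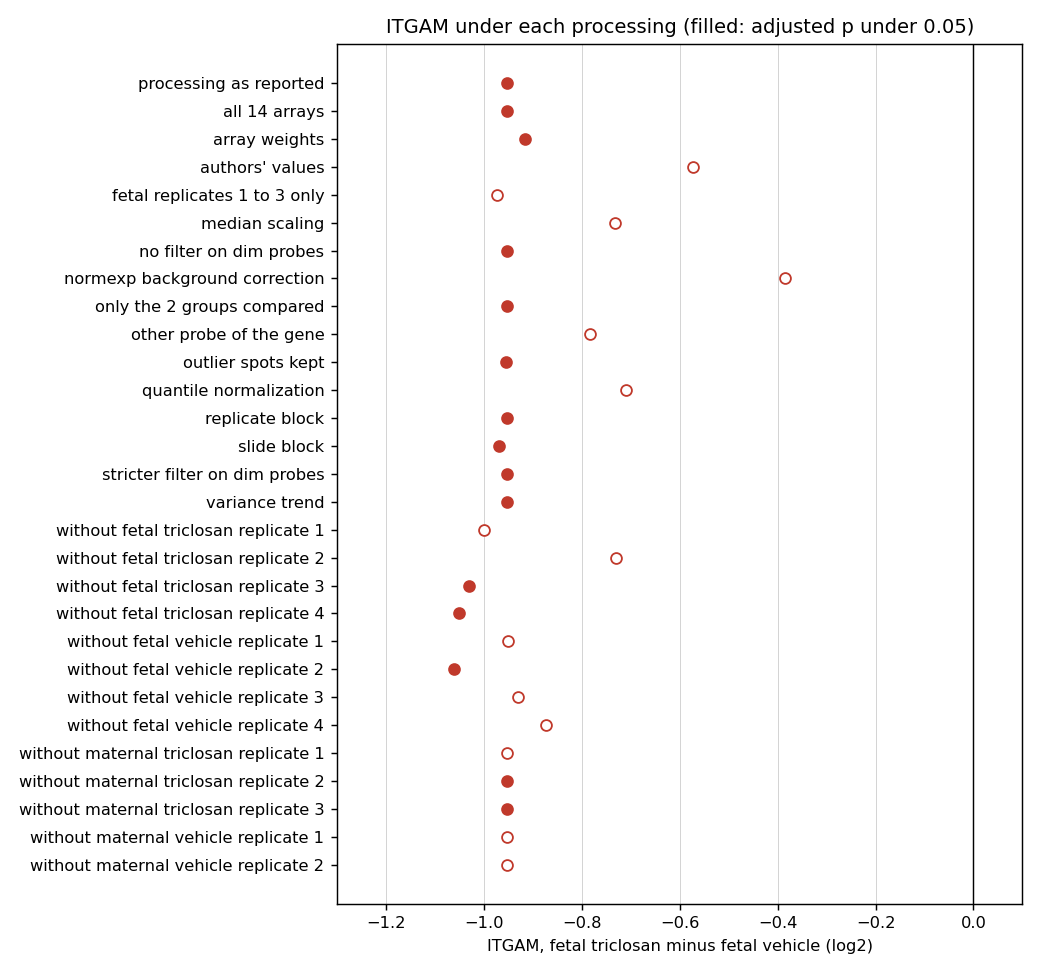
Log2 difference of ITGAM, fetal triclosan minus fetal vehicle, as reported and under each alternative processing or with 1 array left out. Filled points had an adjusted p under 0.05 in limma and open points did not. The points lie between −1.06 and −0.38, with 15 of 29 filled.

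ITGB2, the integrin beta chain that pairs with ITGAM, had a lower mean level with triclosan in both infusions without passing the adjusted threshold in either. Its level had a geometric mean of 73.5% in fetal triclosan and 86.1% in fetal vehicle, a difference of −0.23 (SE 0.17, adjusted p of 0.37 in limma). The means were 78.1% with maternal triclosan and 109% with maternal vehicle, a difference of −0.48 (SE 0.21, unadjusted p of 0.0475, adjusted p of 0.514 in limma).

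In the fetal infusion the Fc receptor genes FCER1G and FCGR1A had positive values that were not called, whereas ITGAM had a negative one. In the maternal infusion FCGR1A had a negative value, as ITGAM did, and neither was called. The genes were not tested against each other. FCER1G had 78, 77.9, 66.2 and 59.6% on fetal triclosan arrays, against 59, 40.9, 42.8 and 63.9% on fetal vehicle arrays. The groups overlapped because fetal triclosan replicate 4 lay below fetal vehicle replicate 4. The difference was 0.47 (SE 0.17, 95% confidence interval 0.10 to 0.83), with an unadjusted p of 0.0174 and an adjusted p of 0.0762 in limma, and it was not called. The exact permutation p was 0.0571. It was positive within slides 1, 2 and 3, at 0.40, 0.93 and 0.34, and was 0.52 with the slide as a block (adjusted p of 0.0738 in limma). FCER1G was called with median scaling (0.69, adjusted p of 0.021 in limma), with fetal replicates 1 to 3 only (0.65, 0.0276), without fetal triclosan replicate 4 (0.54, 0.0498) and without fetal vehicle replicate 4 (0.58, 0.0453). Its second probe gave 0.46 (adjusted p of 0.104 in limma), with a correlation of 0.96 between the probes over 13 arrays.

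FCER1G had 73.1, 71.1 and 57.9% on maternal triclosan arrays, against 65.9 and 71.3% on maternal vehicle arrays. The groups overlapped, and the difference was −0.03 (SE 0.22, 95% confidence interval −0.51 to 0.44, adjusted p of 0.972 in limma). The fetal vehicle group, at a geometric mean of 50.7%, was the lowest of the 4, and the other groups lay between 67 and 70%. The difference between the maternal and fetal contrasts was −0.50 (SE 0.27, 95% confidence interval −1.10 to 0.10, adjusted p of 0.4 in limma).

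FCGR1A, the receptor chain that signals through FCER1G, had 4.94, 5.65, 5.4 and 5.89% on fetal triclosan arrays, against 4.81, 4.68, 5.01 and 5.77% on fetal vehicle arrays. The groups overlapped, and the difference was 0.11 (SE 0.13, 95% confidence interval −0.17 to 0.39, adjusted p of 0.583 in limma). It had 4.62, 4 and 5.68% on maternal triclosan arrays, against 7.4 and 6.55% on maternal vehicle arrays, with no overlap. That difference was −0.56 (SE 0.17, 95% confidence interval −0.93 to −0.20), with an unadjusted p of 0.00586 and an adjusted p of 0.435 in limma. Within slides 1 and 2 it was −0.68 and −0.71, and with the slide as a block it was −0.63 (adjusted p of 0.185 in limma). FCGR1A showed the smallest spread of the 5 genes within groups, with a pooled SD of 0.16 on the log2 scale, against 0.43 for ITGAM.

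ADORA3, the adenosine receptor, had 27.5, 30.7, 33 and 38.3% on fetal triclosan arrays, against 32.1, 24.5, 22.5 and 29.8% on fetal vehicle arrays. The groups overlapped, and the difference was 0.25 (SE 0.16, 95% confidence interval −0.09 to 0.60, adjusted p of 0.284 in limma). It was called only with median scaling among the alternatives run (0.47, adjusted p of 0.0443 in limma), under which 15.5% of all probes were called higher and 6.78% lower, and it was −0.23, 0.32 and 0.35 within slides 1, 2 and 3. ADORA3 had 27.3, 23.6 and 29.8% on maternal triclosan arrays, against 57.8 and 45.3% on maternal vehicle arrays. Both maternal vehicle arrays exceeded every other array of the study, and the maternal triclosan arrays lay within the range of the fetal groups. The difference was −0.93 (SE 0.20, 95% confidence interval −1.37 to −0.49), with an unadjusted p of 0.000666 and an adjusted p of 0.327 in limma. It was −1.08 and −0.94 within slides 1 and 2 and −0.96 with the slide as a block (adjusted p of 0.166 in limma). The 5 spots of the probe agreed closely, with a median SD of 0.07 on the log2 scale within an array and at most 0.14.

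LCK, the T cell kinase, had 7.89, 10.8, 10 and 8.32% on fetal triclosan arrays, against 7.21, 11.8, 8.68 and 11.7% on fetal vehicle arrays. The fetal triclosan values lay within the fetal vehicle range, and the difference was −0.07 (SE 0.19, 95% confidence interval −0.47 to 0.34, adjusted p of 0.822 in limma). LCK had 10.8, 13.6 and 15.4% on maternal triclosan arrays, against 7.19 and 6.71% on maternal vehicle arrays. The groups did not overlap, which in the higher direction held for 19.5% of all probes. The difference was 0.92 (SE 0.24, 95% confidence interval 0.40 to 1.44), with an unadjusted p of 0.00251 and an adjusted p of 0.359 in limma. It was 0.59 and 1.02 within slides 1 and 2 and 0.86 with the slide as a block (adjusted p of 0.185 in limma), and it was 0.40 with normexp background correction.

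**Figure D3:**
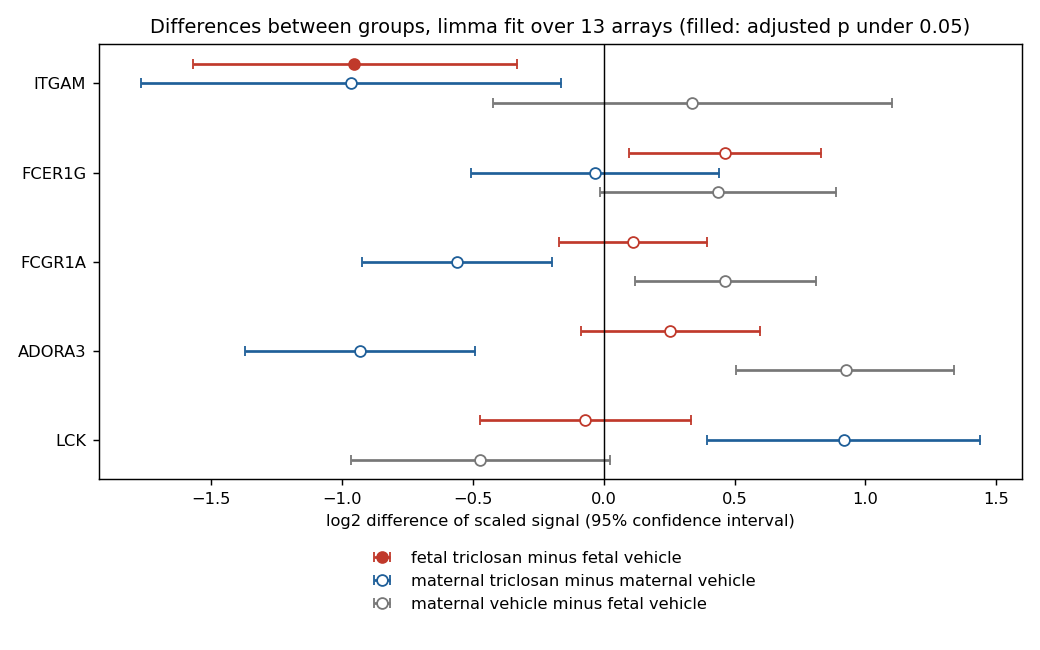
Log2 difference of each gene with its 95% confidence interval from the limma fit over 13 arrays, for fetal triclosan minus fetal vehicle, maternal triclosan minus maternal vehicle, and maternal vehicle minus fetal vehicle. The filled point, ITGAM in the fetal infusion at −0.95, is the only one with an adjusted p under 0.05. Each of the 5 genes has values of opposite sign in the maternal infusion and in the comparison of the vehicle groups, which share the maternal vehicle arrays.

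Over the maternal infusion as a whole, 0 of the 5 genes and 0% of all probes were called by limma, while 4 of the 5 genes and 9.62% of all probes had an unadjusted p under 0.05. The arrays of the groups did not overlap for ITGAM, FCGR1A and ADORA3, which were lower with triclosan, or for LCK, which was higher, and this held for 38.7% of all probes with 3 against 2 arrays. With array weights, which let limma give less weight to noisier arrays, ADORA3 (−0.93, adjusted p of 0.0272) and FCGR1A (−0.59, 0.0413) were called lower, as were 1.32% of all probes, while 1.28% were called higher. With all 14 arrays 0 members were called. The maternal contrast minus the fetal contrast was −1.19 (SE 0.26) for ADORA3, −0.67 (SE 0.21) for FCGR1A and 0.99 (SE 0.30) for LCK, the last falling to 0.37 with normexp background correction. Their adjusted p-values in limma were 0.217, 0.249 and 0.248, and 0% of all probes were called in that comparison.

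The maternal and fetal vehicle groups were also compared with each other, and no member was called. ADORA3 was 51.2% in maternal vehicle and 26.9% in fetal vehicle as geometric means, a log2 difference of 0.93 (SE 0.19, unadjusted p of 0.000468, adjusted p of 1 in limma). FCGR1A was 6.97% in maternal vehicle and 5.05% in fetal vehicle, a difference of 0.46 (SE 0.16, unadjusted p of 0.0129, adjusted p of 1 in limma). LCK was 6.95% in maternal vehicle and 9.63% in fetal vehicle, a difference of −0.47 (SE 0.23, unadjusted p of 0.06, adjusted p of 1 in limma). It was −0.01 within slide 1 and −0.05 with normexp background correction. The arrays of the vehicle groups did not overlap for any of the 5 genes, with 4 higher in maternal vehicle, while 17% of all probes showed no overlap with 2 against 4 arrays, 9.64% higher and 7.34% lower. In this comparison 0 members and 0% of all probes were called, and 3.33% of probes had an unadjusted p under 0.05. The geometric means of ADORA3 and FCGR1A in maternal triclosan, 26.8 and 4.72%, lay beside 26.9 and 5.05% in fetal vehicle, a comparison across the infusions that was not tested.

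The order of the 4 groups differed from gene to gene. ITGAM ran from maternal vehicle (7.6%) through fetal vehicle (6.02%) and maternal triclosan (3.89%) to fetal triclosan (3.11%), with the arrays of neighbouring groups overlapping except for the maternal and fetal vehicle arrays. FCER1G ran from fetal triclosan (70%) through maternal vehicle (68.6%) and maternal triclosan (67%) to fetal vehicle (50.7%), with every pair of neighbours overlapping. FCGR1A ran from maternal vehicle (6.97%) through fetal triclosan (5.46%) and fetal vehicle (5.05%) to maternal triclosan (4.72%), and ADORA3 kept the same order at 51.2, 32.1, 26.9 and 26.8%. In both of these, maternal vehicle alone did not overlap its neighbour. LCK ran from maternal triclosan (13.1%) through fetal vehicle (9.63%) and fetal triclosan (9.18%) to maternal vehicle (6.95%), which alone did not overlap its neighbour.

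Across the 13 arrays the 5 genes did not all vary together. The permutations exchanged arrays between groups, so their p-values also take in differences between the groups. Of 10 pairs of genes, FCGR1A and ADORA3 had a Pearson correlation of 0.87 and a Spearman correlation of 0.77, with permutation p-values of 9e-05 and 0.00322 and values of 9e-04 and 0.0322 after adjustment over the 10 pairs. Without the 2 arrays farthest from the median FCGR1A level, r was 0.77, and among deviations from the group means it was 0.64. No slide held more than 4 arrays, so no correlation is given within a slide, and among deviations from the slide means of 12 arrays r was 0.93. ADORA3 and LCK had r of −0.58 (permutation p of 0.0343, adjusted 0.171), which became −0.29 without the 2 farthest arrays. ITGAM had r of 0.49 with FCGR1A (permutation p of 0.0886) and −0.39 with FCER1G (permutation p of 0.179). Among deviations from the group means, ITGAM had r of 0.60 with FCGR1A, 0.48 with ADORA3, −0.18 with FCER1G and −0.21 with LCK. ADORA3 and LCK had −0.05 there, and these values within groups were not tested.

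**Figure D4:**
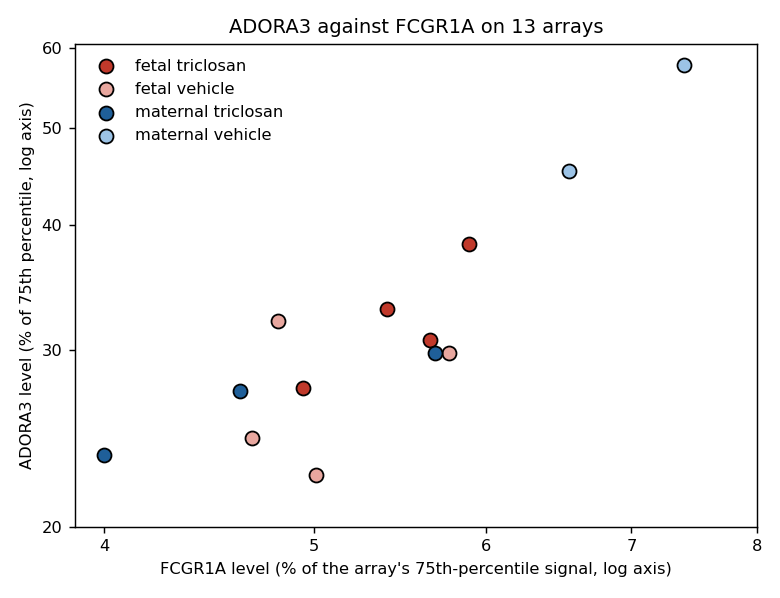
ADORA3 level against FCGR1A level on the 13 arrays, both as percent of the array's 75th-percentile signal on log axes, with colours for the 4 groups. The 2 maternal vehicle arrays are at the upper right, at 57.8 and 45.3% for ADORA3, and the other 11 arrays spread along the same direction below them.

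The genes most like each member were taken as the 3 with the highest Pearson correlation over the 13 arrays among 749 named genes other than the 5 members, and these values describe the arrays without a test. For FCGR1A these were CTSS (0.79), a lysosomal protease of antigen-presenting cells, CD1D (0.78), which presents lipid antigens, and OVAR-DQA1 (0.70), a major histocompatibility class II chain. For ADORA3 they were CRY1 (0.70), a circadian repressor, CD1D again (0.69) and SLC2A5 (0.68), a fructose transporter. For ITGAM they were SPRY-4 (0.89), a sprouty protein, PSAP (0.88), the precursor of lysosomal saposins, and HSP70.1 (0.87), a heat shock protein. For FCER1G they were FZD2 (0.82), a Wnt receptor, the complement receptor C5aR (0.80) and GAL (0.78), a neuropeptide. C5aR had a Spearman correlation of 0.94 with FCER1G, whereas that of FZD2 was 0.40. For LCK they were GSTA1-1 (0.79), a glutathione transferase, IGFBP6 (0.78), which binds insulin-like growth factors, and EM4e (0.76).

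The wider immune genes were described with lists of 167 genes, of which 60 were on the array under the names listed and 56 were tested. In the fetal infusion 5 of the 56 were called, 2 higher and 3 lower, with a median log2 difference of −0.10, next to −0.10 for all named genes tested. Among all 901 named genes 5.99% were called higher and 9.43% lower. MIF, a cytokine that restrains macrophage migration, rose by 0.73 (SE 0.20, adjusted p of 0.0285 in limma), with 704 to 1340% on fetal triclosan arrays, against 537 to 715% on fetal vehicle arrays. CXCL10, an interferon-induced chemokine for T cells, rose by 1.76 (SE 0.52, adjusted p of 0.0359 in limma). It had 30.6, 36.6, 49.3 and 7.42% on fetal triclosan arrays, against 14.3, 7.32, 5.2 and 5.7% on fetal vehicle arrays, so that replicate 4 of fetal triclosan stayed within the vehicle range. CTSB, a lysosomal protease, fell by 0.69 (SE 0.20, adjusted p of 0.0345 in limma), and CD40, a costimulatory receptor of antigen-presenting cells, fell by 0.62 (SE 0.19, 0.0476). ITGAM was the remaining gene.

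These calls also depended on single arrays. Of 26 alternative fits, CTSB and MIF were called in 18, CXCL10 in 17, ITGAM in 14 and CD40 in 6. Among fits without 1 array, MIF lost its call without fetal vehicle replicate 1, 2 or 3 or fetal triclosan replicate 1 or 2 (0.58 to 0.73). CTSB lost it without any 1 fetal vehicle array or without fetal triclosan replicate 1 or 2 (−0.72 to −0.49). CXCL10 lost it without fetal vehicle replicate 2, 3 or 4, fetal triclosan replicate 1, 2 or 3, or either maternal vehicle array (1.44 to 1.76). CD40 kept it only without fetal triclosan replicate 4, at −0.79.

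Of 43 listed microglia and macrophage genes, 17 were tested, including ITGAM, FCER1G, FCGR1A and ADORA3. In the fetal infusion 0 were called higher and 2 lower (ITGAM and CTSB), next to 5.99% and 9.43% of all named genes tested. At an unadjusted p under 0.05 in limma, 3 were higher and 2 lower, next to 11.7% and 16.8% of named genes. The median was 0.01, with values from −0.95 to 0.53, and 8 of 17 values were below 0. In the maternal infusion 0 of 17 were called by limma. There 7 of 17 had an unadjusted p under 0.05, all of them lower, while 4.11% of all named genes tested were lower at that level and 5.11% higher. The 7 include the members ITGAM, FCGR1A and ADORA3, and members and list were chosen with earlier results of these data known. The count therefore only describes these arrays. The median of the list was −0.34, next to 0.03 for all named genes, and 11 of 17 values were below 0. Besides ITGAM, FCGR1A, ADORA3 and ITGB2 the 7 were TLR2, a receptor for bacterial lipoproteins (−0.60), CTSS (−0.57) and FCGR2B, the inhibitory receptor for immunoglobulin G. FCGR2B had 1.12, 0.843 and 1.39% on maternal triclosan arrays, of which only replicate 3 was well above background, against 1.63 and 1.58% on maternal vehicle arrays, so its place in this count rests partly on values near background. SLC11A1, a phagosomal metal transporter, and LYZ, lysozyme, had the highest values of the list, 0.63 and 0.61, with adjusted p-values of 0.642 and 0.571 in limma.

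**Figure D5:**
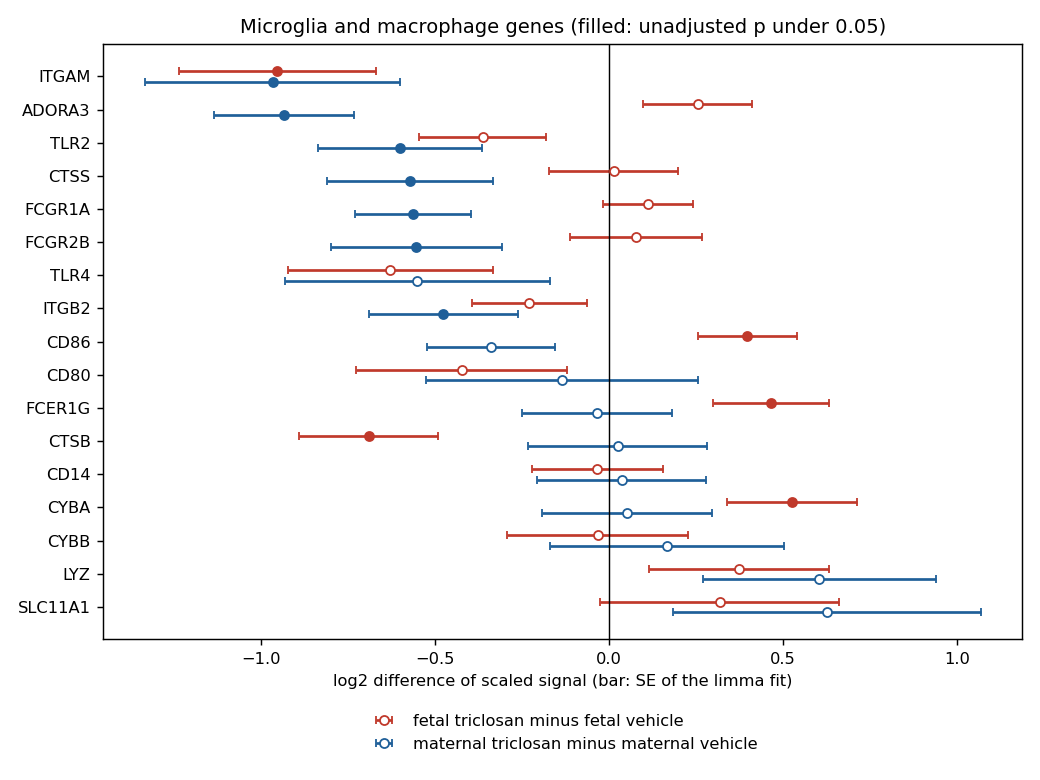
Log2 difference of the 17 tested microglia and macrophage genes for fetal triclosan minus fetal vehicle and for maternal triclosan minus maternal vehicle, with SE bars, ordered by the maternal value. Filled points had an unadjusted p under 0.05, 7 of them in the maternal infusion, all below 0. ITGAM, at −0.95 and −0.97, is the only gene filled in both.

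These 17 genes together summed to 518 to 619% on fetal triclosan arrays and 522 to 724% on fetal vehicle arrays. It was 515 to 601% on maternal triclosan arrays and 687 to 731% on maternal vehicle arrays, so that the maternal groups did not overlap. The fetal groups did overlap in this sum. CTSS, CTSB, ITGB2 and FCER1G made up most of it, and ITGAM and FCGR1A added little. Among the 17, 8 genes had maternal triclosan arrays all below the maternal vehicle arrays and 1 had them all above, next to 19.2% and 19.5% of all probes. In the comparison of maternal vehicle with fetal vehicle, 6 of the 17 had no overlap in the higher direction and 1 in the lower, next to 9.64% and 7.34% of all probes, and both comparisons use the same 2 maternal vehicle arrays. Members are among the genes counted in both, so these counts too are only a description.

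Of 37 listed T and natural killer lymphocyte genes, 11 were tested, and 0 were called by limma in either infusion. At an unadjusted p under 0.05 the count was 0 in the fetal infusion and 1, LCK, in the maternal infusion, next to 33.3% and 9.62% of all probes. The list median was −0.40 in the fetal infusion, with 10 of 11 values below 0, and 0.06 in the maternal infusion, with 5 of 11 below 0. All named genes tested had medians of −0.10 and 0.03 in these infusions. LCK is in class 4 of 10 classes of mean signal, counted from the dimmest. There the median probe had −0.28 in the fetal infusion and −0.03 in the maternal infusion. In the dimmest class it had −0.29 and 0.25, but most genes of the list are not that dim. With maternal triclosan, CD3E and CD5, surface proteins of T cells, had values of 0.65 (SE 0.45) and 0.40 (SE 0.29). CD247, the zeta chain that LCK phosphorylates, had −0.62 (SE 0.65), and CD3D had −0.08 (SE 0.37). The summed level of the list was 83.4 to 213% in fetal triclosan, 136 to 316% in fetal vehicle, 105 to 124% in maternal triclosan and 115 to 136% in maternal vehicle. CD247 made up most of this sum on fetal vehicle arrays 1 to 3, and its own level was 29.1 to 156% in fetal triclosan and 60.4 to 237% in fetal vehicle. CD4 and CD28, which define T helper cells and their costimulation, were not tested because they were well above background on fewer than 3 arrays.

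Markers of other cell types moved as well, and their part in the results above was not tested. The 3 tested erythroid genes summed to 1180 to 2340% on fetal triclosan arrays, against 428 to 1250% on fetal vehicle arrays, nearly all of it the globin HBB. In this contrast 1 of 3, the haemoglobin chaperone AHSP (0.94), was called higher, next to 5.99% of named genes. On maternal arrays they summed to 1050 to 2730% with triclosan, against 327 to 904% with vehicle, with 0 called. The 5 tested endothelial and pericyte genes summed to 56 to 76.3% on fetal triclosan arrays, against 81.3 to 116% on fetal vehicle arrays, with 3 of 5 (KDR, CD93 and FLT1) called lower, next to 9.43% of named genes. FLT1 was well above background on 0 of the 4 fetal triclosan arrays. Of the remaining genes PECAM1, the largest term of the sum, had −0.26 (SE 0.19), and TIE1 had 0.06 (SE 0.16). On maternal arrays they summed to 85.6 to 96.3% with triclosan, against 96.8 to 106% with vehicle, with 0 called. TIE1 had 0.46 there (SE 0.20, unadjusted p of 0.0425, adjusted p of 0.511 in limma). The 7 tested meningeal and choroid plexus genes summed to 7620 to 8610% in fetal triclosan and 4360 to 6950% in fetal vehicle. Of these 7, PTGDS alone was called higher (0.55), next to 5.99% of named genes. The sum was 6100 to 6970% in maternal triclosan and 5960 to 6110% in maternal vehicle. Of 5 astrocyte genes FGFR3 alone was called lower in the fetal infusion (−1.61, adjusted p of 0.0101 in limma), next to 9.43% of named genes. EAAT2 had −1.44 in the maternal infusion (adjusted p of 0.207 in limma). The sum of the astrocyte genes, nearly all of it AQP4, was 6460 to 9200% in fetal triclosan, 6270 to 7750% in fetal vehicle, 6770 to 7790% in maternal triclosan and 6260 to 7020% in maternal vehicle. The 9 neuronal genes summed to 850 to 5530% in fetal triclosan, 811 to 1750% in fetal vehicle, 2120 to 3330% in maternal triclosan and 1030 to 1550% in maternal vehicle. The 6 pituitary genes summed to 1270 to 2120% in fetal triclosan, 1210 to 1810% in fetal vehicle, 1800 to 1910% in maternal triclosan and 1480 to 1550% in maternal vehicle. Of the neuronal and pituitary genes 0 were called by limma in either infusion. At an unadjusted p under 0.05 in limma, 5 of 9 neuronal genes were higher in the fetal infusion and 3 of 9 in the maternal infusion. Of all named genes tested, 11.7% and 5.11% were higher at that level. Of the pituitary genes at that level, 0 of 6 passed in the fetal infusion, and 2 were higher and 1 lower in the maternal infusion. Named genes lower at that level were 16.8% in the fetal infusion and 4.11% in the maternal infusion.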

How the data were processed

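RNA of fetal sheep hypothalamus was measured on single-colour (Cy3) Agilent arrays, 14 deposited and 13 analysed. Per the file headers, the deposited scanner files hold spot intensity values made with Agilent Feature Extraction 10.1.1.1, with a processed signal corrected for background and spatial trend inside each array and no scaling between arrays. The value table the authors deposited, used as an alternative, appears to hold log2 values: each column followed the log2 signal of that array most closely, with medians of 8.78 to 8.80 and slopes of 0.80 to 0.89. The sources used here do not give how these log2 values were scaled or filtered by the authors before they were deposited. The role of limma, named in the submitters' processing notes, is not given either.

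Control spots and outlier spots were left out, and processed signals were put on a log2 scale less each array's 75th percentile. Spots of a probe were averaged, and probes well above background on at least 3 of the 13 arrays were kept (13738 probes, 250 missing values). The brighter probe stood for a gene. A group-mean model was fitted with limma 3.58.1 in R 4.3.3 (9 residual and 2.39 prior degrees of freedom), with two-sided moderated tests and Benjamini-Hochberg adjustment over all probes at 0.05. The fit was tested on simulated data with 200 of 13593 probes changed by 1 on the log2 scale: it called 129 of them and 7 unchanged probes for the fetal infusion, and 84 and 2 for the maternal infusion. The number of arrays limits the precision, and array signals give no counting error. Correlations used 1e+05 permutations.

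The 5 members, the gene lists and the naming rule were chosen with earlier results of these data known. Every member was named. Of the other immune genes, those past the threshold were named, with up to 6 per list in order of unadjusted p. Gene names came from the scanner files and a RefSeq gene table. No genome was used, so no coordinates are given, and the FCER1G probes are not printed. Alternatives were normexp correction, quantile normalization, median scaling, the authors' values, other filters, outlier spots kept, array weights, a variance trend, slide and replicate blocks, all 14 arrays, only the compared groups, the other probe and each array left out. A fit of fetal replicates 1 to 3 alone was added after the data were seen.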

Additional observations from a re-analysis of the deposited data

Results flagged for a closer look

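ITGAM on fetal triclosan replicate 2 had a level of 1.96% of the 75th-percentile signal, far from the 3.44 to 3.82% of the other fetal triclosan arrays. Its gap to the nearest of these was 0.841 of the range of the group on the log2 scale, above Dixon's 95% critical value for 4 samples. Chance gives such a gap in about 1 of 20 sets of 4 values. Here 10 such sets were examined, from the 5 genes in the fetal triclosan and fetal vehicle groups, and they share the same arrays. Replicate 2, on slide 2, was the lowest for ITGAM in the other groups too. It had 4.86% in fetal vehicle, 7.36% in maternal vehicle and 2.29% in maternal triclosan. The dimmer ITGAM probe was also lowest on fetal triclosan replicate 2, at 1.77%. Without it the fetal difference of ITGAM was −0.73 (adjusted p of 0.0893 in limma). The cause was not tested.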

How the results depend on the processing

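ITGAM kept its sign in the fetal infusion under every alternative run. It lost the call in the authors' values (−0.57, adjusted p of 0.117 in limma), with median scaling (−0.73, 0.0597), quantile normalization (−0.71, 0.131), normexp (−0.38, 0.185), the dimmer probe (−0.78, 0.167) and fetal replicates 1 to 3 only (−0.97, 0.0783), the last with fewer samples. Without 1 array it was −1.06 to −0.73. With the replicate block it was −0.95 (adjusted p of 0.00995 in limma) and with all 14 arrays the adjusted p was 0.025. Replicate numbers are not known to pair the samples: deviations from group means had correlations of −0.17 to 0.46 between same-numbered arrays, 8 of 16 over 0.1. The replicate block raised the calls from 2511 to 2819 probes and called 1 member. Members called in the fetal infusion numbered 0 with the authors' values, normexp or quantile normalization and 2 with median scaling (FCER1G 0.69, ADORA3 0.47), against 1 as reported, and 0 to 2 without 1 array. Members called in the maternal infusion numbered 2 with array weights, against 0. Immune list genes called in the fetal infusion numbered 8 with array weights, 9 with median scaling, 3 with normexp and 2 with only the compared groups, against 5, and 0 to 8 without 1 array. In the maternal infusion they numbered 2 with array weights, against 0. Fetal probes called were 921 higher and 1590 lower, against 2127 and 932 with median scaling. The total was 1294 with only the compared groups, 1589 with quantile normalization and 1234 without fetal vehicle replicate 3, against 2511.

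Values near 0 changed sign. FCER1G in the maternal infusion, at −0.03, was 0.0262 with array weights, 0.0319 in the authors' values, 0.00327 with median scaling, 0.0331 with the second probe, 0.0505 with the replicate block, 0.00673 with the slide block and −0.0963 to 0.0724 without 1 array. The ITGAM difference between the infusions, at −0.01, was 0.0109 with array weights, −0.45 with normexp, −0.34 with the dimmer probe and −0.28 to 0.37 without 1 array. LCK in the fetal infusion, at −0.07, was 0.18 in the authors' values, 0.0696 with fetal replicates 1 to 3 only, 0.15 with median scaling, 0.0325 with normexp, 0.19 with quantile normalization, 0.00844 with the slide block and −0.21 to 0.0273 without 1 array. With normexp the LCK values were 0.40 for the maternal infusion, 0.37 for the difference between the infusions and −0.05 for the vehicle groups, against 0.92, 0.99 and −0.47. The causes were not tested. ADORA3, FCGR1A, ITGAM and LCK kept their signs in the maternal infusion under the alternatives run. The small number of arrays, with 2 in maternal vehicle, and the dim signals of ITGAM and FCGR1A limit what these data can show.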

Other observations

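FCER1A is the ligand-binding chain of the immunoglobulin E receptor that signals through FCER1G, and a marker of mast cells and basophils. It was well above background on 2 of 4 fetal triclosan arrays and on 0 of 4 fetal vehicle arrays. On maternal arrays this held for 2 of 3 with triclosan and for 0 of 2 with vehicle. FCER1A has 2 probes, and its values here are those of the probe that stood for the gene. It had 0.811, 0.26, 1.33 and 3.07% of the 75th-percentile signal on fetal triclosan arrays, against 0.147, 0.2, 0.147 and 0.211% on fetal vehicle arrays. On maternal arrays it had 1.61, 1.15 and 0.14% with triclosan, against 0.147 and 0.153% with vehicle. The share of all probes with such a pattern was not counted, and the values of the other FCER1A probe are not given. The probe entered the fit only through the triclosan arrays, and its vehicle values lie below background, as do some of its triclosan values. No fold or p-value is therefore given for either infusion, and FCER1A was not called in the fit as reported. Some alternatives called it higher in the fetal infusion, among them array weights, median scaling, quantile normalization and only the compared groups. Those calls rest on the same values below background. The result is a description of these arrays, and its relation to FCER1G was not tested. Of the 4 tested genes of the granulocyte and mast cell list, 0 were called by limma in either infusion, and the others did not share one direction. In the fetal infusion KIT had −0.44 (SE 0.33), MMP9 −0.62 (SE 0.36) and LTF 0.55 (SE 0.44). KIT was well above background on 0 of 4 fetal triclosan arrays and on 3 of 4 fetal vehicle arrays, so its value rests on signals near background.

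Among genes for leukocyte identity and adhesion, 5 of 17 listed were tested, and 0 were called by limma in either infusion. All 5 had values below 0 in the fetal infusion, with a median of −0.54, and 1 of 5 in the maternal infusion, with a median of 0.23. All named genes tested had medians of −0.10 and 0.03 in these infusions. In the dimmest class of mean signal the median probe had −0.29 in the fetal infusion and 0.25 in the maternal infusion. A shared drop of the list was not tested. In the fetal infusion ICAM1, the ligand of leukocyte integrins, had −0.54 (SE 0.30), and ITGB1, an integrin beta chain, had −0.27 (SE 0.19). ICAM1 was not well above background on fetal triclosan replicate 2, nor was SELP on replicates 2 and 4 of that group. SELE was not on fetal triclosan replicates 2, 3 and 4 or on fetal vehicle replicate 2. The fetal values of these genes therefore rest partly on signals near background. ITGB1 and ITGA4 were well above background on every fetal array.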
